A study of Neurospora crassa with 2 samples.

Results

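Genes whose annotation names a transcription factor or a class of zinc finger or other DNA-binding domain were set side by side in Δ*gul*-*1* and the wild type (WT) of *Neurospora crassa*, a filamentous ascomycete. The members were chosen by words in the annotation column alone: transcription factor, transcriptional regulator, activator or repressor, C6, fungal specific, zinc finger, bZIP, GATA, homeobox, forkhead or helix-loop-helix. Of the 9730 genes in the table, 86 carried such words and 3 of them were dropped as basal transcription factors (TFIIE alpha, Tfb4 and Taf13), which left 83 genes. A further 14 loci that are regulators under gene names of their own, such as *white collar-1* and *cellulose degradation regulator-1*, were left out by name, and none of them carried the words. The words also took in proteins that are not regulators of promoters, which are described with their own groups.

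A sequence-specific transcription factor binds short motifs near a gene through its DNA-binding domain and recruits or blocks the proteins that load RNA polymerase II. The zinc cluster class, with zinc ions held by cysteines (Zn2Cys6, also written C6), is found almost only in fungi and is their largest class of such factors. C2H2 fingers, basic leucine zippers (bZIP), GATA fingers and basic helix-loop-helix domains are shared with animals and plants. In *N. crassa* such factors set the use of carbon and nitrogen sources, conidiation, the sexual cycle and the answer to light and stress. Many act without a change in their own mRNA, since they are controlled by phosphorylation, location or an inducer.

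RNA was sequenced from 1 Δ*gul*-*1* culture and 1 WT culture, both grown from conidia for 3 days under constant light in medium with Avicel, a microcrystalline cellulose, and yeast extract. Δ*gul*-*1* lacks *gul*-*1* (NCU01197), an RNA-binding protein gene known for its part in hyphal shape and cell wall remodelling, and WT carries no deletion. The tissue was mycelium in both. Reads assigned to genes came to 20341292 in the Δ*gul*-*1* library and 20461987 in the WT library, and *gul*-*1* itself had 304 reads in the Δ*gul*-*1* library against 21537 in the WT library, as the labels say. RPKM, the unit used below, is the read number scaled by exon length and by the library's reads assigned to genes. Genes above 20 RPKM in at least 1 library were taken as expressed, after the floor in the study's methods, and called higher at a ratio (Δ*gul*-*1* over WT) of at least 2 or lower at 0.5 or less. Each strain has a lone library, so that no test could be made and no p-value is printed. Intervals beside ratios are exact 95% counting intervals from the reads, which do not cover variation between cultures. A bulk library does not tell less RNA per cell from fewer cells of a kind. The summed level of 5 conidial marker genes was 936 RPKM in Δ*gul*-*1* and 6671 RPKM in WT, where *eas* made up most of the WT sum (169.0 RPKM in Δ*gul*-*1* against 5793 RPKM in WT). Of the other markers, *con-8* was also on the lower side (511.1 RPKM against 705.6 RPKM), and *con-6* (21.3 RPKM against 10.3 RPKM), *con-10* (229.4 RPKM against 159.1 RPKM) and *con-13* (5.14 RPKM against 3.15 RPKM) were on the higher side in Δ*gul*-*1*. The part of conidial cells in the values below was not tested.

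Most of these genes were expressed, and most stood at nearly the same level in both libraries. Of the 83 genes, 59 passed the floor, 50 of them in both libraries, 6 through the Δ*gul*-*1* library only and 3 through the WT library only. That is 71.1% of the list, against 45.3% of all genes and 60.3% of the genes with an annotation other than hypothetical protein. The median level over the 83 genes was 32.9 RPKM in Δ*gul*-*1* and 27.2 RPKM in WT, against all-gene medians of 16.0 RPKM in Δ*gul*-*1* and 14.3 RPKM in WT. Every member had reads in both libraries, with at least 105 reads in the 2 libraries together. The lowest was NCU05767, named for PRO1, a zinc cluster factor needed for fruiting bodies in *Sordaria macrospora*, with 58 reads in Δ*gul*-*1* and 47 reads in WT.

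Among the 59 expressed members, 3 stood at least 2-fold higher in Δ*gul*-*1* (5.08%, where 3.88% of all 4409 expressed genes were), none was at least 2-fold lower (2.63% of all expressed genes were), and 56 lay within 2-fold. At a fold of 1.5, 5 members were higher (8.47%, against 10.8% of all expressed genes) and 2 were lower (3.39%, against 5.76%), so that 52 of 59 (88.1%) lay within 1.5-fold, against 83.4% of all expressed genes. The shares of the list thus lay near those of the genome in both directions. Without the floor, over genes with at least 100 reads in the 2 libraries together, the same 3 of 83 members were at least 2-fold higher (3.61%, against 4.77% of 7775 genes) and none was lower (against 2.3%).

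The log2 ratio of the expressed members had a median of 0.09, with quartiles of -0.15 and 0.29, against a median of 0.11 and quartiles of -0.11 and 0.31 over all expressed genes. It ran from -0.88 to 1.76, with 34 members above 0 and 25 below, where 2818 of all 4409 expressed genes were above 0 and 1591 below. The counting interval left out a ratio of 1 for 49 of the 59, 30 on the higher side and 19 on the lower side on deposited RPKM. These reads therefore resolve differences far smaller than 2-fold between the libraries: for the median expressed member, each end of the interval lay a factor of 1.053 from the ratio, and for the median member under the floor a factor of 1.147. Scaling moves the centre, because TMM and median-of-ratios factors each lowered every log2 ratio by 0.15 and took the all-gene median to -0.04. The counts of 49, 30 and 19 were not made with these factors or over all genes, so they are not read as a trait of the list.

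**Figure D1:**
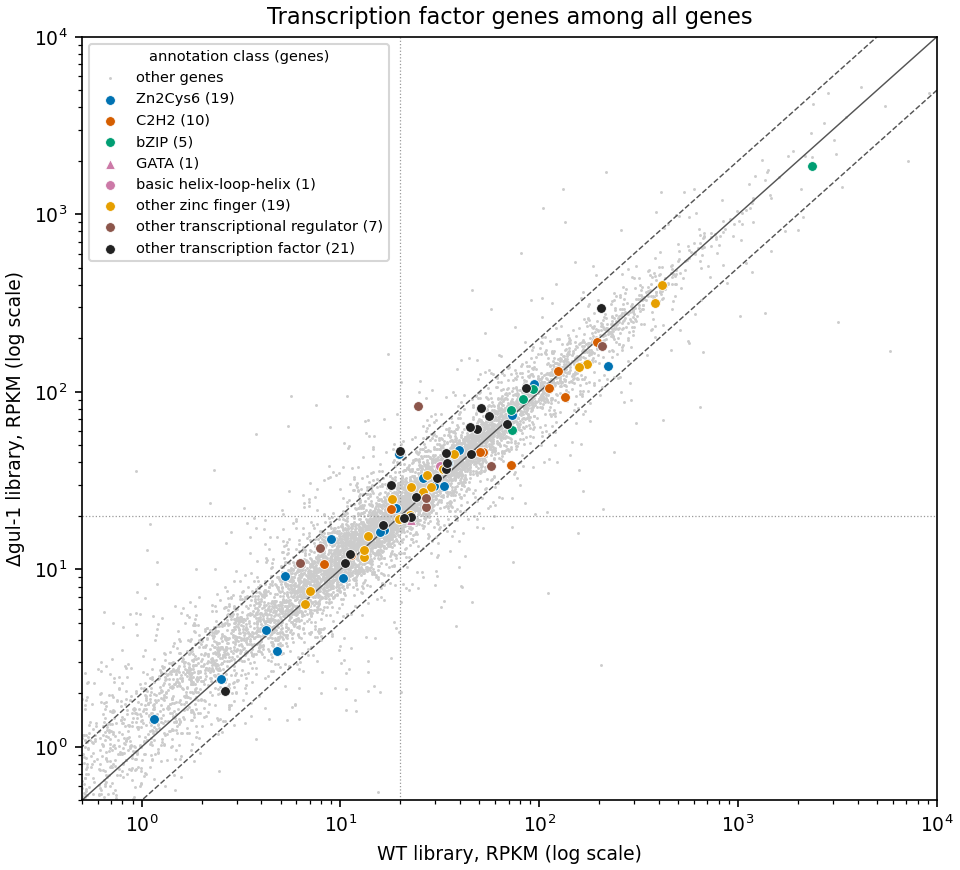
RPKM in the Δ*gul*-*1* library (vertical axis, log scale) against RPKM in the WT library (horizontal axis, log scale), with the 83 members coloured by annotation class and the other genes in grey, except those under 0.5 RPKM in either library. Dashed diagonals mark 2-fold and dotted lines the floor of 20 RPKM: the 3 members above the upper diagonal are NCU09169, NCU06646 and NCU16599, and no member lies under the lower one.

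**Figure D2:**
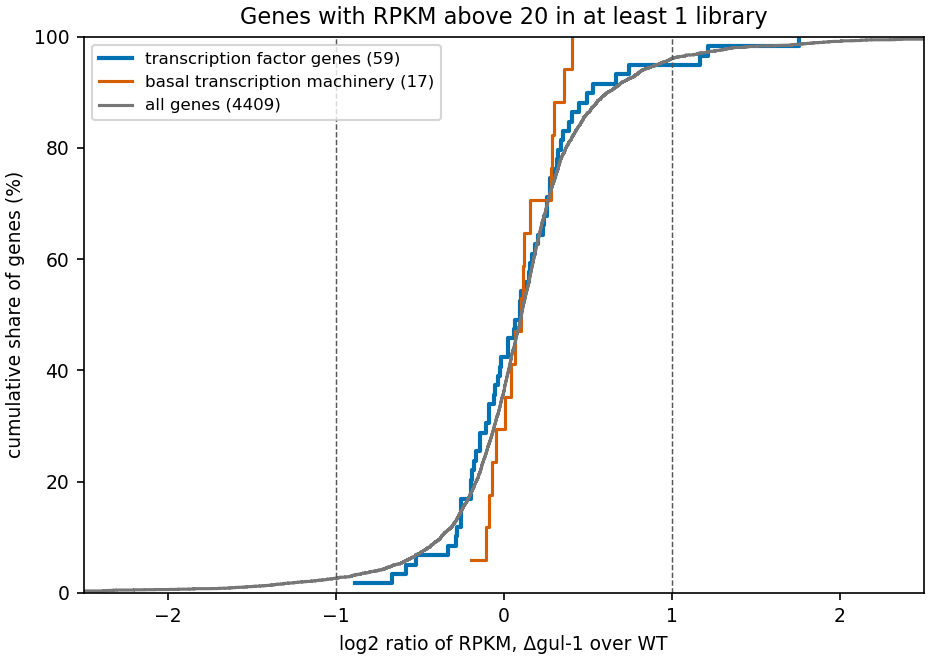
Cumulative share of genes in percent (vertical axis) by log2 ratio of Δ*gul*-*1* over WT (horizontal axis), for the 59 expressed members, the 17 expressed genes of the basal transcription machinery outside the 83 and all 4409 expressed genes. The members' curve follows that of all genes around its median of 0.09 and ends at -0.88 on the lower side, while the basal machinery lies between -0.20 and 0.41.

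The highest ratio belonged to NCU09169 (chromosome III, 237024 to 238377 in the NC12 assembly), annotated as an NmrA family transcriptional regulator. NmrA proteins bind dinucleotides and not DNA, and the *Aspergillus nidulans* protein holds back the GATA factor AreA of nitrogen metabolism. The gene had 2098 reads and 83.3 RPKM in Δ*gul*-*1* against 624 reads and 24.6 RPKM in WT, 3.38-fold higher with an interval of 3.09 to 3.70. It was the only member past 3-fold, and the only one called at a floor of 50 RPKM. Its neighbours on the chromosome did not share its level: NCU09168, 52 bases away, had 3 reads in Δ*gul*-*1* and 4 in WT, and NCU09170, an alpha-N-arabinofuranosidase gene, had 3.85 RPKM in Δ*gul*-*1* and 2.73 RPKM in WT.

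NCU06646 (chromosome V, 4110771 to 4111908) is annotated as RNA polymerase II transcription factor B subunit 5, a small subunit of the complex also called TFIIH, which opens promoter DNA and repairs damaged DNA. NCU06646 took 825 reads and 46.2 RPKM in Δ*gul*-*1* against 358 reads and 19.9 RPKM in WT, a ratio of 2.32 (2.05 to 2.63). It is part of the basal machinery, and stayed in the list only because its annotation spells the complex in another way than the words that dropped Tfb4. The other TFIIH subunits did not share its ratio: Tfb2 (NCU05523) stood at 10.9 RPKM in Δ*gul*-*1* and 10.5 RPKM in WT, Tfb3 (NCU02587, subunit 3) at 12.1 RPKM and 11.2 RPKM, and Tfb4 at 10.8 RPKM and 10.5 RPKM. In RefSeq NCU06646 overlaps NCU06647, an enoyl-CoA hydratase/isomerase gene, by 667 bases, and NCU06647 had 20.9 RPKM in Δ*gul*-*1* and 14.9 RPKM in WT. How reads over the shared bases were assigned was not tested.

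NCU16599 (chromosome II, 4265050 to 4266907), a C6 zinc finger gene with no gene name, had 1521 reads and 44.5 RPKM in Δ*gul*-*1* against 680 reads and 19.8 RPKM in WT, a ratio of 2.25 (2.05 to 2.47). Like NCU06646, it passed the floor through the Δ*gul*-*1* library only. On deposited RPKM the intervals of all 3 genes lay wholly beyond 2-fold. With TMM the log2 ratios were 1.06 for NCU06646 and 1.02 for NCU16599, and the intervals of this pair then reach under 2-fold. That of NCU09169 does not. All 3 are short for this list, with exon lengths of 1238 bases for NCU09169, 878 bases for NCU06646 and 1680 bases for NCU16599, where the median member has 2998 bases.

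On deposited RPKM the genes next to NCU16599 stood out with it, a comparison chosen after the values were seen. NCU09777, annotated as a UPF0075 domain protein and 202 bases away on one side, had 62.9 RPKM in Δ*gul*-*1* and 27.3 RPKM in WT (ratio 2.31, 2.14 to 2.49). NCU09776, a hypothetical protein gene 380 bases away on the other side, had 126.3 RPKM in Δ*gul*-*1* and 58.7 RPKM in WT (ratio 2.15, 2.00 to 2.31). A hexose carrier gene beyond NCU09777, NCU09358, lay 23593 bases from NCU16599 and had 45.4 RPKM in Δ*gul*-*1* and 24.2 RPKM in WT (ratio 1.87). The other genes within 4 places on both sides had ratios under 1 or no reads. NCU06646 also had a neighbour past 2-fold, the hypothetical protein gene NCU06645, with 42.3 RPKM in Δ*gul*-*1* and 21.0 RPKM in WT (ratio 2.01, 1.87 to 2.16). TMM or median-of-ratios factors put NCU09776 and NCU06645 under 2-fold and leave NCU09777 past it. Over the genome on deposited RPKM, 37 of the 171 genes at least 2-fold higher (21.6%) had an adjacent gene that was also at least 2-fold higher. Of the 4237 other expressed genes, 112 (2.64%) had such a neighbour.

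**Figure D3:**
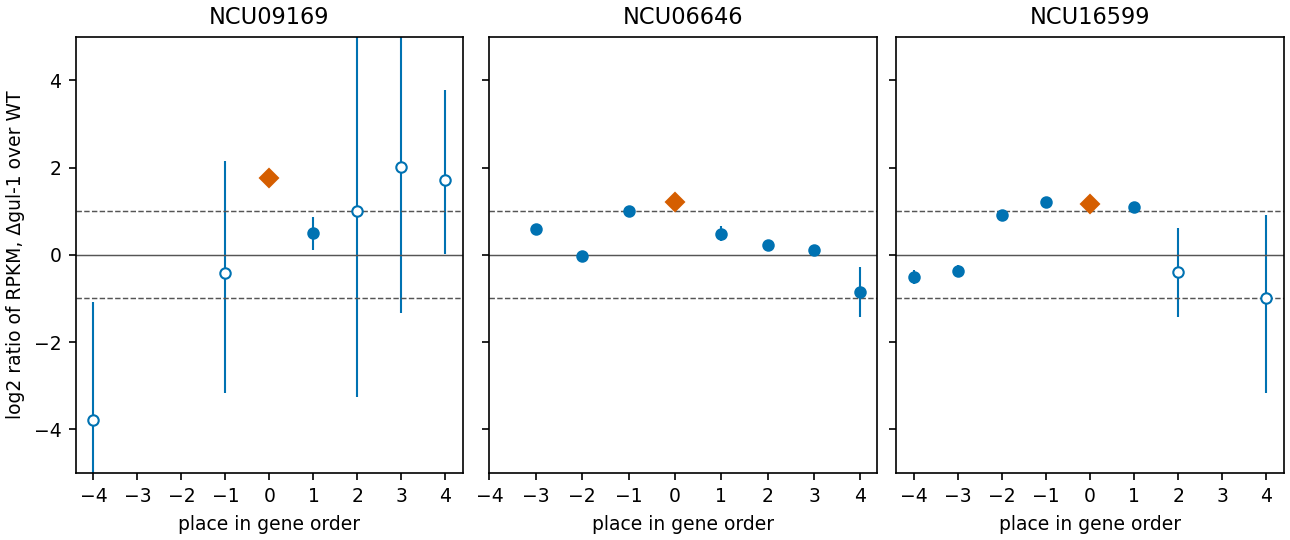
Log2 ratio of Δ*gul*-*1* over WT (vertical axis) for the 3 members at least 2-fold higher (diamonds, place 0) and for up to 4 genes on each side in RefSeq order (circles, horizontal axis). Bars are 95% counting intervals, some running past the axis, open circles are genes with under 100 reads in both libraries together, genes with no reads in a library or no row in the table are not drawn and dashed lines mark 2-fold: both neighbours of NCU16599 (ratios 2.31 and 2.15) lie above the upper line, and none of the neighbours of NCU09169 with a narrow interval does.

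By annotation words, zinc cluster genes formed the largest named class, with 19 members, of which 10 were expressed. Only NCU16599 was past 2-fold, and the median log2 ratio of the 10 was 0.21, against 0.12 over all 19 genes with no floor. On deposited RPKM 7 of the 10 were above 0 and 3 below, where 2818 of all 4409 expressed genes were above 0. The lowest of them was NCU05996 (chromosome VI), with 12827 reads and 140.2 RPKM in Δ*gul*-*1* against 20482 reads and 222.6 RPKM in WT, a ratio of 0.630 (0.616 to 0.644). It was also the most abundant zinc cluster gene in both libraries. A pair under the floor were higher by less than 2-fold: NCU16491 had 9.17 RPKM in Δ*gul*-*1* and 5.23 RPKM in WT (ratio 1.75), and NCU00808 had 14.8 RPKM in Δ*gul*-*1* and 8.94 RPKM in WT (ratio 1.66). NCU09549, also under the floor, had 225 reads in Δ*gul*-*1* and 312 reads in WT (ratio 0.725, 0.608 to 0.864).

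Of 10 genes with C2H2 in their annotation, 8 were expressed and none was past 2-fold. Zinc finger factors annotated without that word, such as pacC (NCU00090) and ace1 (NCU09333), are classed elsewhere, so the counts describe the wording and not all factors with such fingers. On deposited RPKM 2 of the 8 had a log2 ratio above 0 and 6 below, with a median of -0.12, where 2818 of all 4409 expressed genes were above 0. Under the floor, NCU00416 (log2 ratio 0.09) and NCU00038 (0.37) were above 0, and the median over all 10 genes was -0.06. The lowest ratio of the whole list was that of NCU05285, annotated as RfeC (chromosome IV, 5458170 to 5462816), with 3576 reads and 38.9 RPKM in Δ*gul*-*1* against 6635 reads and 71.7 RPKM in WT. Its ratio was 0.542 (0.520 to 0.565), or -0.88 on the log2 scale, and it reached -1.03, past the 2-fold line, with TMM or median-of-ratios factors. NCU05064 followed, with 93.5 RPKM in Δ*gul*-*1* and 134.5 RPKM in WT (ratio 0.695, 0.676 to 0.716). FlbC (NCU03184), whose *A. nidulans* counterpart promotes conidiation, stood at 190 RPKM in Δ*gul*-*1* and 194 RPKM in WT. Its interval of 0.949 to 1.01 held a ratio of 1 on deposited RPKM, but lies under 1 with TMM. NCU09496, a C2H2 gene with no gene name, had 130.8 RPKM in Δ*gul*-*1* and 124.7 RPKM in WT.

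All 5 bZIP genes were expressed above 50 RPKM in both libraries, with log2 ratios between -0.33 and 0.17. The most abundant transcript of the whole list was in this class, IDI4 (NCU08055, chromosome I, 117750 to 119387), named for a *Podospora anserina* factor induced when incompatible strains fuse. IDI4 took 62361 reads and 1872 RPKM in Δ*gul*-*1* against 79081 reads and 2359 RPKM in WT, a ratio of 0.793 (0.785 to 0.802). This gene ranked 17 among all 9730 genes in Δ*gul*-*1* and 14 in WT, and it made up 29.05% of the summed RPKM of the 83 members in Δ*gul*-*1* and 34.4% in WT. The summed level of the list, 6443 RPKM in Δ*gul*-*1* and 6851 RPKM in WT, was thus lower in Δ*gul*-*1*, while the median log2 ratio of the expressed members was 0.09 on deposited RPKM and -0.06 with TMM. A further bZIP factor by function, hac1 (NCU01856), is classed here by its annotation as a transcriptional activator. In yeast Hac1 drives the unfolded protein response after its mRNA is spliced in the cytoplasm, a step that gene-level reads do not show, and its gene had 182.1 RPKM in Δ*gul*-*1* and 207.6 RPKM in WT (ratio 0.877).

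**Figure D4:**
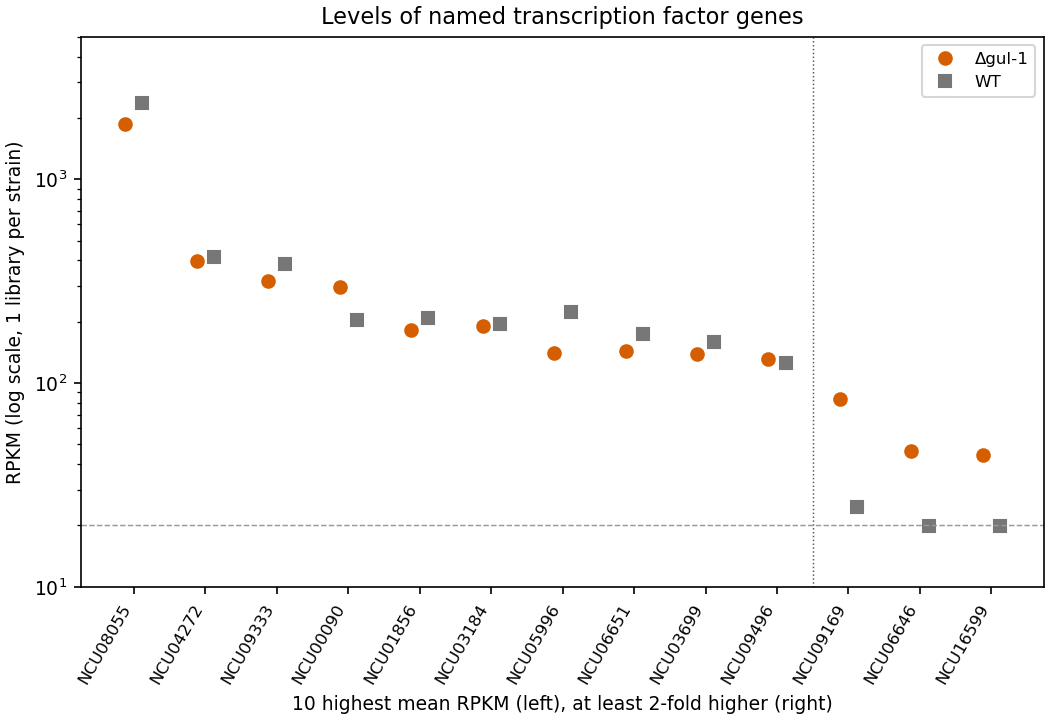
RPKM (vertical axis, log scale) of the 10 members with the highest mean level, left of the dotted line, and of the 3 members at least 2-fold higher, right of it, in Δ*gul*-*1* (orange circles) and WT (grey squares), 1 library each. IDI4 (NCU08055) stands alone at 1872 RPKM in Δ*gul*-*1* and 2359 RPKM in WT, pacC (NCU00090) is the abundant gene farthest above its WT value (ratio 1.45), and the dashed line is the floor of 20 RPKM.

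PacC (NCU00090, chromosome III), the zinc finger factor that turns on genes for alkaline conditions in *A. nidulans*, had 18130 reads and 295.2 RPKM in Δ*gul*-*1* against 12621 reads and 204.3 RPKM in WT, 1.45-fold higher (1.41 to 1.48). It was the fourth most abundant member by mean level. The gene annotated ace1 (NCU09333), after a repressor of cellulase genes in *Trichoderma reesei*, was on the lower side, with 316.4 RPKM in Δ*gul*-*1* and 383.4 RPKM in WT (ratio 0.825, 0.810 to 0.840). The heat-shock factor genes *hsf-1* and *hsf-2* stood at 44.7 RPKM and 39.8 RPKM in Δ*gul*-*1*, against 45.5 RPKM and 34.5 RPKM in WT. The MEF2-type MADS-box gene NCU02558, of the family of yeast Rlm1 in the cell wall integrity pathway, had 19.8 RPKM in Δ*gul*-*1* and 22.7 RPKM in WT (ratio 0.873, 0.806 to 0.944). None of these 5 genes was past 1.5-fold.

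NCU08000, annotated as cutinase transcription factor 1 alpha, had 63.2 RPKM in Δ*gul*-*1* and 44.8 RPKM in WT (ratio 1.41, 1.35 to 1.47), and the 1 beta gene NCU03643 had 17.7 RPKM in Δ*gul*-*1* and 16.4 RPKM in WT (ratio 1.08). These names come from factors of a plant-pathogenic *Fusarium* that act on cutinase genes. TamA (NCU05994), a partner of AreA in *A. nidulans*, had 45.2 RPKM in Δ*gul*-*1* and 34.1 RPKM in WT (ratio 1.32, 1.25 to 1.41). The CCAAT-box-binding factor gene NCU09894 had 36.7 RPKM in Δ*gul*-*1* and 34.1 RPKM in WT.

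The GATA gene *asd-4* (NCU15829), needed for asci and ascospores in *N. crassa*, had 1087 reads and 19.0 RPKM in Δ*gul*-*1* against 1307 reads and 22.7 RPKM in WT (ratio 0.837, 0.771 to 0.907). Xbp1 (NCU06339), named for a stress-induced repressor of yeast, had few reads, 94 in Δ*gul*-*1* and 121 in WT. The wide interval of its ratio of 0.781 (0.590 to 1.03) held 1 on deposited RPKM, but lies under 1 with TMM. The helix-loop-helix gene NCU02724 had 38.1 RPKM in Δ*gul*-*1* and 31.5 RPKM in WT (ratio 1.21), and NCU05257, with both a homeobox and C2H2 fingers in its annotation, 21.8 RPKM in Δ*gul*-*1* and 17.9 RPKM in WT.

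The 21 genes with the words transcription factor and no class word had a median log2 ratio of 0.30 over 17 expressed members. Among expressed members it was the highest median of the groups with more than 1 gene. With no floor the median over the 21 genes was 0.12, under that of the bZIP genes (0.13) and of all genes (0.15). This group is what the wording left over, with pacC, TFIIH subunits and Spt8 among its genes. It can hold factors of the named classes, so its median is not that of a domain class. NF-X1 (NCU03273) had 30.0 RPKM in Δ*gul*-*1* and 17.9 RPKM in WT (ratio 1.67, 1.57 to 1.78), the expressed member nearest under the 2-fold line. NCU02134, a factor with no gene name, had 80.9 RPKM in Δ*gul*-*1* and 50.9 RPKM in WT (ratio 1.59, 1.52 to 1.66). Spt8 (NCU09208), a subunit of the SAGA coactivator in yeast, lay just above the floor at 19.4 RPKM in Δ*gul*-*1* and 20.9 RPKM in WT.

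Of the 7 genes annotated as transcriptional regulators or activators, 5 were expressed. Beside NCU09169, a pair under the floor were higher by less than 2-fold: NCU00863 had 10.9 RPKM in Δ*gul*-*1* and 6.28 RPKM in WT (ratio 1.73, 1.52 to 1.97), and *nst-7* (NCU07624), a gene named for the sirtuin family of NAD-dependent deacetylases, had 13.2 RPKM in Δ*gul*-*1* and 7.92 RPKM in WT (ratio 1.67, 1.44 to 1.94). At the other end stood NCU00768, annotated as an mRNA binding post-transcriptional regulator, with 38.3 RPKM in Δ*gul*-*1* and 57.3 RPKM in WT (ratio 0.668, 0.629 to 0.709). The annotation of NCU00768 matched only because the words sit inside post-transcriptional regulator, so that it is an RNA-binding protein gene and not a promoter factor by name. The median log2 ratio of the 5 expressed genes was -0.19.

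The 19 genes with other zinc finger words are the least like a list of promoter factors, since zinc fingers also bind RNA, lipids and proteins. They include NCU07734, named for the yeast Arf GTPase-activating protein Gcs1, the CCCH genes NCU03048 and NCU07418 of a finger class that mostly binds RNA, and zpr1 (NCU08507), which in yeast helps elongation factor eEF1A fold. Of these 19 genes 12 were expressed, none was past 1.5-fold and their median log2 ratio was 0.04. The most abundant was the ZZ-type gene NCU04272, with 398.2 RPKM in Δ*gul*-*1* and 415.0 RPKM in WT (ratio 0.960). NCU06651, an AN1-type gene, had 142.9 RPKM in Δ*gul*-*1* and 173.8 RPKM in WT (ratio 0.822), and NCU03699 had 138.6 RPKM in Δ*gul*-*1* and 158.9 RPKM in WT (ratio 0.872). Just under the floor lay zpr1, at 19.1 RPKM in Δ*gul*-*1* and 19.9 RPKM in WT, and NCU07577, at 19.3 RPKM in Δ*gul*-*1* and 19.8 RPKM in WT.

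**Figure D5:**
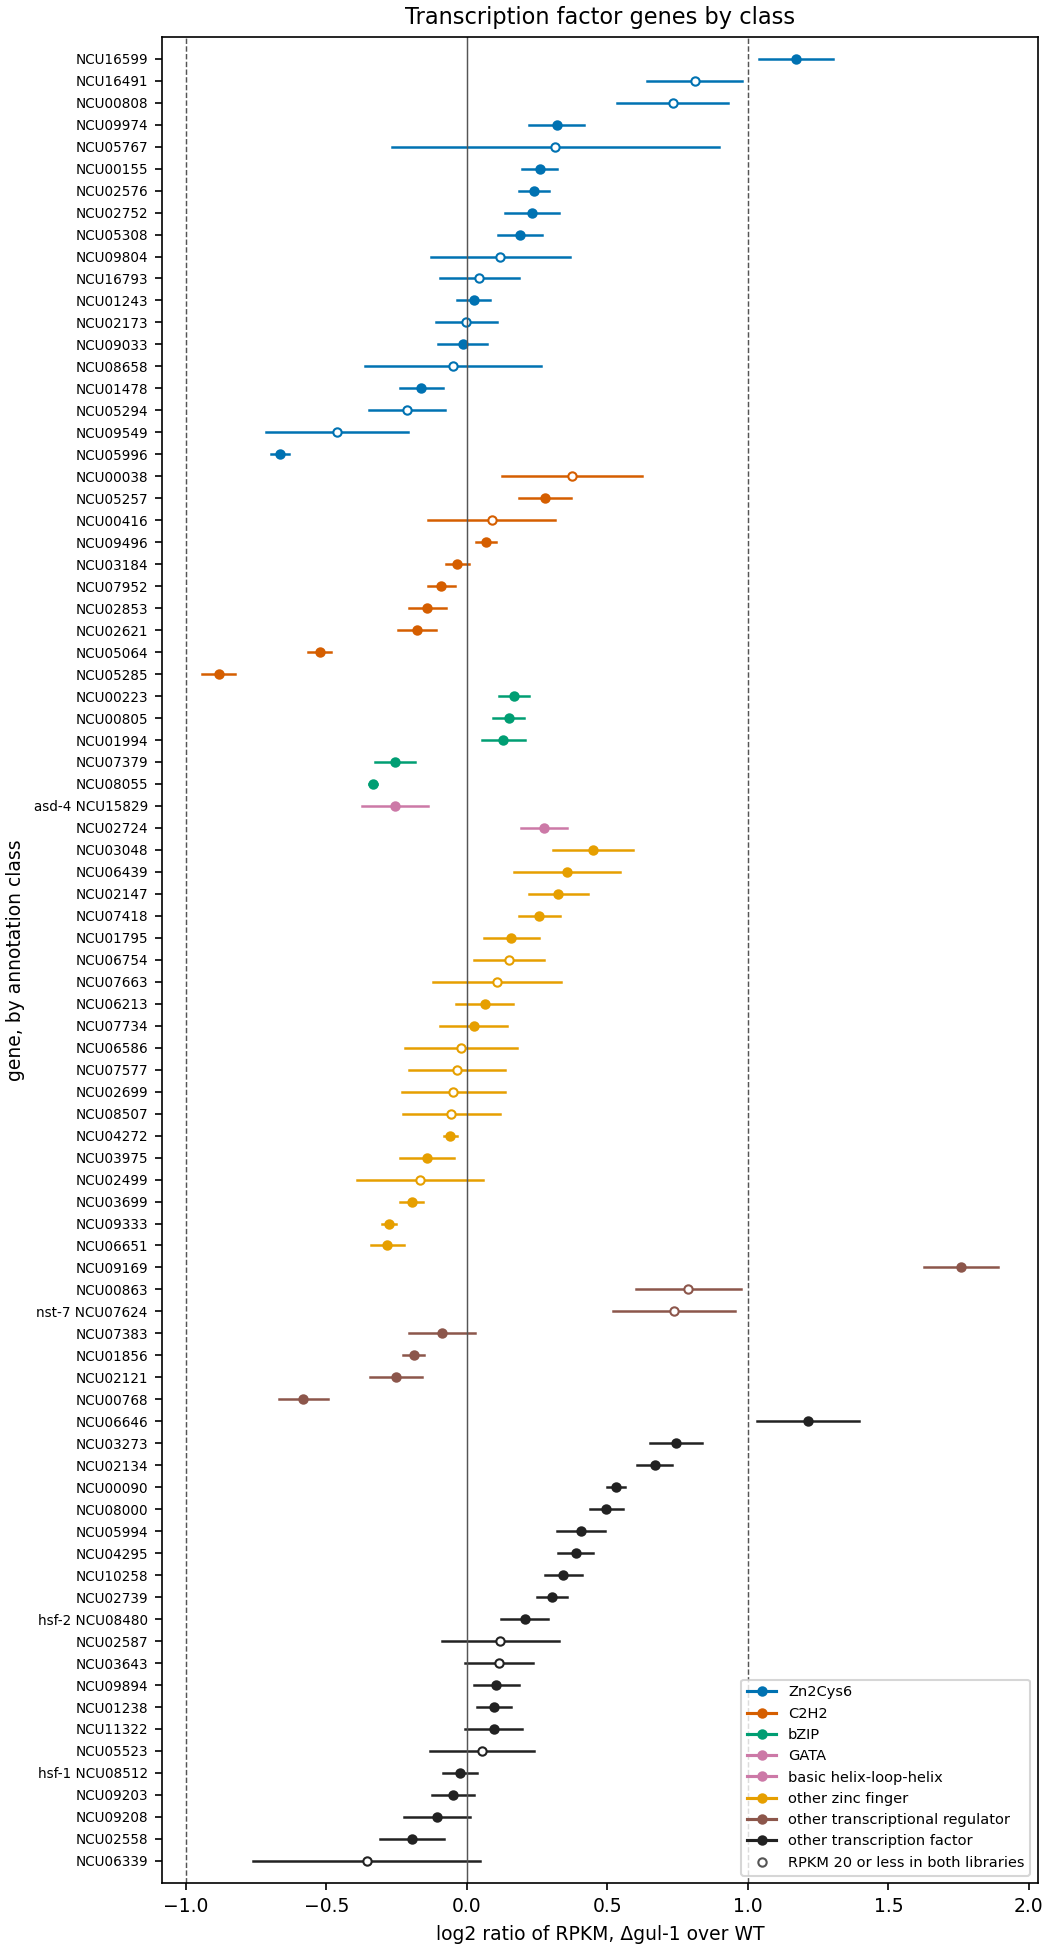
Log2 ratio of Δ*gul*-*1* over WT (horizontal axis) with its 95% counting interval for each of the 83 members, grouped and coloured by annotation class and sorted within it. Open circles are members at 20 RPKM or less in both libraries and dashed lines mark 2-fold: NCU09169, NCU06646 and NCU16599 lie beyond the right line, NCU05285 at -0.88 is nearest to the left one, and the other members lie between.

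A narrower list, without the genes that matched by the words zinc finger or transcriptional regulator, activator or repressor alone, held 58 genes. Of its 43 expressed members, 2 were at least 2-fold higher (NCU06646 and NCU16599), or 4.65% against 3.88% of all expressed genes. None was lower, against 2.63% of all expressed genes, and the median log2 ratio was 0.11. The 25 genes this left out had 16 expressed members with a median of -0.02. A list of the basal transcription machinery was made from 33 genes outside the 83 that are annotated to RNA polymerase II and III, TFIID, TFIIE and TFIIH, Mediator, SAGA or Elongator. Of these, 17 were expressed and none was past 1.5-fold, where 83.4% of all expressed genes lay within 1.5-fold. The list does not hold the subunits that the annotation words placed among the 83, NCU06646 (ratio 2.32) included. Under the floor, NCU01563, a cyclin-like subunit gene, had a ratio of 1.52 (1.33 to 1.74). The log2 ratios of the 17 expressed genes ran from -0.20 to 0.41, with a median of 0.11. The highest was that of the TATA-binding protein gene (NCU04770), at 359.0 RPKM in Δ*gul*-*1* and 271.1 RPKM in WT.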

How the data were processed

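RNA-seq was made from Δ*gul*-*1* and WT mycelia, with 1 library per strain. The deposited table holds, per the file headers, raw counts of reads and RPKM per gene, exon length and the authors' NOISeq probability, which was not used. The submitters' processing notes name TopHat2 2.0.8b and HTSeq 0.5.4p2. The authors mapped reads to *N. crassa* transcripts and counted those that mapped to 1 gene. The strand setting of the counting was not given in the sources used here. In RefSeq, 21 of the 83 members overlap another gene, by 1 to 1769 bases, and reads within the shared bases cannot be told apart without strand. The authors' RPKM matched reads over exon length and column total in every gene, to within 9.1e-13.

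Ratios were taken from the deposited RPKM with no pseudocount. Counting intervals are exact 95% Clopper-Pearson intervals of the reads of both libraries and cover counting error only. Classes were set from annotation words, with the first match taken in the order zinc cluster, C2H2, bZIP, GATA, homeobox, forkhead, helix-loop-helix, other zinc finger, other transcriptional regulator and other transcription factor. The genes named are *gul*-*1*, members past the floor and 2-fold, the 10 highest and 10 lowest ratios with at least 100 reads in both libraries together, the 10 highest mean levels, members with a RefSeq symbol and those nearest each threshold. Any other named gene was chosen with its value in view. The members and lists were chosen with earlier results of these data known. Positions, symbols and neighbours come from RefSeq for NC12, where 9729 of the 9730 loci and all 83 members were matched. Steps were tested on simulated data. Alternatives were TMM, median-of-ratios factors, the total without the 50 most abundant genes, floors of 5 and 50 RPKM, no floor, a pseudocount of 1 RPKM, folds of 1.5 and 3, intervals wholly beyond 2-fold and a narrower list. A planned search for protein motifs was not run. Python 3.11.15, pandas 2.3.3, numpy 2.4.6, scipy 1.17.1, and edgeR 4.0.16 in R 4.3.3 for TMM, were used.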

Additional observations from a re-analysis of the deposited data

How the results depend on the processing

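The 3 members at least 2-fold higher were the same under TMM and median-of-ratios scaling and the total without the 50 most abundant genes. They were also the same with a floor of 5 RPKM, no floor, a pseudocount of 1 RPKM and, on deposited RPKM, intervals wholly beyond 2-fold. With TMM or median-of-ratios scaling the intervals of NCU06646 and NCU16599 reach under 2-fold. A floor of 50 RPKM left 1 higher member (NCU09169) of 29 expressed, where 87 of all 1988 genes past that floor were higher. The median log2 ratio of these members was -0.05003, against 0.05949 over all genes past that floor. A fold threshold of 3 also left 1 higher member of 59, where 72 of all 4409 expressed genes were higher. A fold threshold of 1.5 gave 5 higher and 2 lower, against 476 higher and 254 lower of all expressed genes. With TMM or median-of-ratios scaling 1 member, NCU05285, was lower at -1.03 on the log2 scale (-0.88 on deposited RPKM), and the median of the members was -0.06 under both (-0.05526 and -0.05514), since these factors lower every log2 ratio alike. No member was lower under the other settings. Over all expressed genes TMM gave 151 lower, where deposited RPKM gave 116. No paired analysis was possible because each strain has 1 library. Depth limits the members under the floor most, and no setting bears on variation between cultures.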
